A study of Mus musculus with 13 samples.

Results

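The Krüppel-like factors (Klf) are zinc finger transcription factors, and 10 of their genes (Klf2, Klf3, Klf4, Klf5, Klf6, Klf9, Klf10, Klf11, Klf13 and Klf15) were followed here among the 38279 gene symbols of a count table from mouse mammary tissue. They were chosen by name. The table holds RNA sequencing of polyA RNA from 6 mammary tumours of Cre-positive mice, in which pregnancy induces excision of Fbxw7, and 4 libraries of the whole gland from Cre-negative mice, labelled wild type. Mice of both kinds were first mated at an age of 12 weeks, and the tumours were taken at 25, 32, 39, 19, 53 and 25 weeks (tumours 1 to 6), against 20 weeks for glands 1 to 3 and 40 weeks for gland 4. The labels used here name neither the promoter of the Cre nor the excised exons. The tumours and glands differ in Cre, Fbxw7 genotype and tissue state together, and these cannot be told apart, while their ages overlap. Deposited totals were 34865913 to 48325044 reads in the tumours and 13723065 to 48353114 reads in the glands.

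Each Klf protein ends in a run of zinc fingers that reads GC-rich or CACCC-type DNA, while the rest of the protein, which recruits coactivators or corepressors, differs widely between members. Klf5 is an epithelial, growth-associated factor and a substrate of Fbxw7, the F-box protein that hands phosphorylated proteins to the SCF ubiquitin ligase, and Klf2 has also been described as an Fbxw7 substrate. Klf4 is a factor of differentiating and squamous epithelium. Klf2 and Klf4 keep endothelium quiescent, and Klf2 keeps T cells in a resting, recirculating state. Klf9 and Klf15 are induced by glucocorticoids, and Klf15 controls fuel use in fat and muscle. Klf10 and Klf11 are induced by TGF-beta. RNA counts say nothing of protein stability, which is the level at which Fbxw7 acts.

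The shared part of the family is its finger domain, and the RNA that encodes it in Klf5, Klf4 and Klf2 is shown because these genes took different courses in the tumours. The capitals are the codons of the zinc-binding cysteines and histidines, and the transcripts are those of GENCODE vM21.
Klf5, bases 1394 to 1636 of a 3352-base transcript: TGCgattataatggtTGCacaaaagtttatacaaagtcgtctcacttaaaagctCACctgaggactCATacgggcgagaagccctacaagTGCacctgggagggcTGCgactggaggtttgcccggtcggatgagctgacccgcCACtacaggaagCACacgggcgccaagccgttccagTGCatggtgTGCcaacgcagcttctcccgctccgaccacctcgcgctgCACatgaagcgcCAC
Klf4, bases 1799 to 2041 of a 3029-base transcript: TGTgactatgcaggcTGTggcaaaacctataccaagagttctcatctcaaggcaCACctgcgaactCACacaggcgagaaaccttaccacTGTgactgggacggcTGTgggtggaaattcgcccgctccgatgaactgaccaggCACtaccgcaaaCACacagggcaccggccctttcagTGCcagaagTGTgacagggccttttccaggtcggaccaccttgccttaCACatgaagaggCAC
Klf2, bases 862 to 1104 of an 1847-base transcript: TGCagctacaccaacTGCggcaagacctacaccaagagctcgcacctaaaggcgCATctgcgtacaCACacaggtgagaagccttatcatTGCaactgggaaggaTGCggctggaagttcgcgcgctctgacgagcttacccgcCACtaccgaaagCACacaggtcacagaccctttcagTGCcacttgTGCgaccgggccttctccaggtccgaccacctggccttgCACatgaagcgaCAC
A stretch of 243 bases with 12 such codons was found in all 10 members. Klf2 and Klf4 were the closest of the 45 pairs, with 78.2% identical bases. Klf10 and Klf11 shared 76.1%, Klf2 and Klf5 shared 70.4%, Klf4 and Klf5 shared 68.3%, and the most distant pair shared 57.2%. Despite this likeness, 8 of the 10 members shared no run of 31 bases with any other Klf or Sp transcript, and the shares were 0.088% for Klf3 and 0.053% for Klf13. Klf3 alone overlapped exons of another gene, Gm20033 on the opposite strand, and the sources used here do not state whether counting used strand.

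All 10 members were measured well enough to be tested. Of these, Klf5 was called higher and Klf2 was called lower in tumours, by edgeR's quasi-likelihood test with Benjamini-Hochberg adjustment over 20101 genes at 0.05. That is 2 of 10, where 15.1% of all tested genes were called (6.89% higher, 8.19% lower), so the number of members called was near the background. The 6 tumours and 4 glands did not overlap for Klf2 and Klf15, against 14.0% of all tested genes (7.50% with the tumours lower). The median log2 fold change was -0.45 over the members and 0.17 over all tested genes. Levels below are CPM (read counts scaled to a common library size), adjusted between libraries by TMM, and they are not per transcript length, so they compare libraries and not genes. Leaving out glands 2 and 3 left 0 members called by edgeR (4.58% of all genes), with 3 at an unadjusted p under 0.05, while without tumours 1 and 6 there were 3 (21.7% of all genes), with Klf15 added. The count was 2 without gland 4 (11.4% of all genes), 2 by DESeq2 (26.8%), 3 by limma-voom (15.3%) and 1 with age as a covariate (9.45%).

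**Figure D1:**
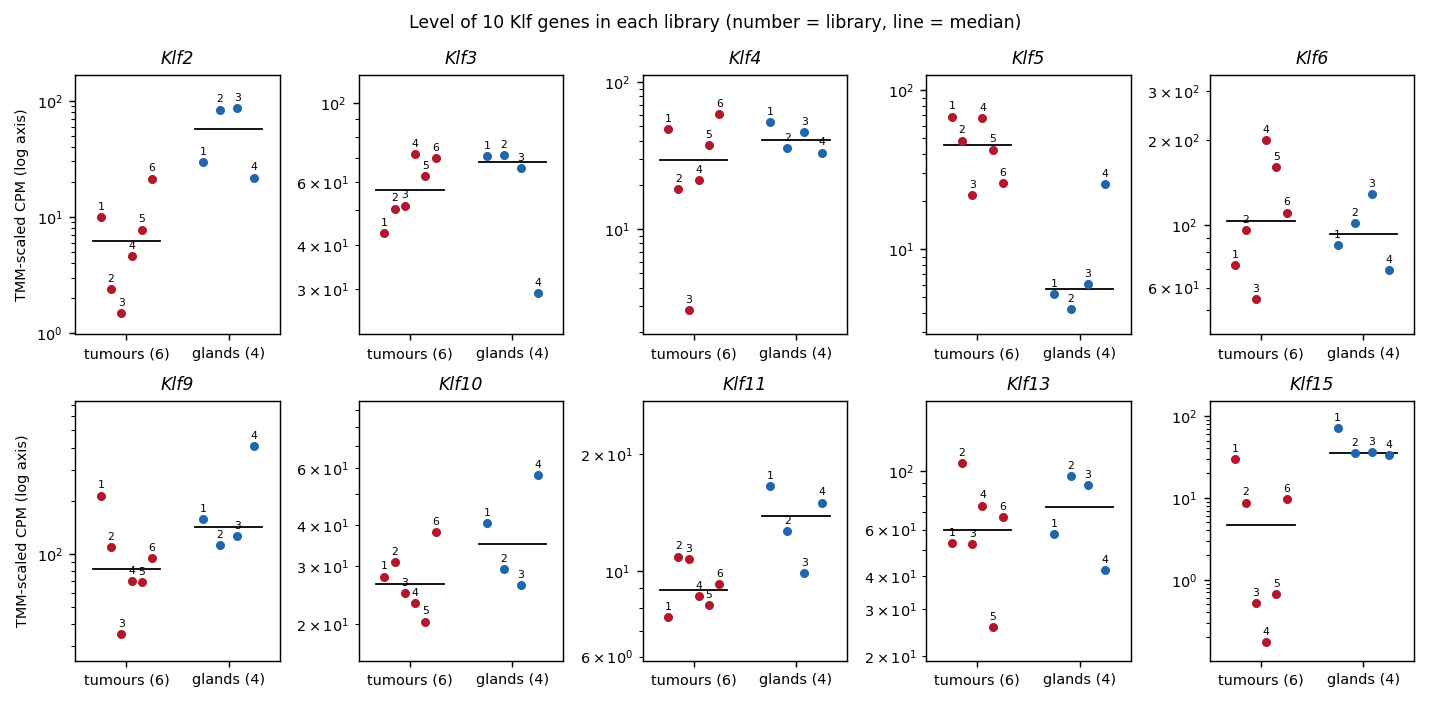
Level of each of the 10 Klf genes in TMM-scaled CPM on a log axis, with 1 point per library (numbered), tumours left of glands and a line at the group median. Klf2 and Klf15 are lower in all 6 tumours than in all 4 glands, Klf5 is higher in 5 of 6 tumours than in any gland, and the remaining members overlap.

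Several libraries stood apart from their group before any Klf gene was considered. Transcripts of 14 salivary gland marker genes made up 43.1% of tumour 1 and 16.7% of tumour 6. They made up at most 0.0388% in the other tumours and 0.0528% in the glands. Transcripts of 12 skeletal muscle marker genes made up 7.52% of gland 4 and 1.40% of gland 1. Glands 2 and 3 held summed T and NK cell markers of 572 and 454 CPM, where the tumours held 5.36 to 81.5 CPM and glands 1 and 4 held 19.3 and 2.29 CPM. Adipocyte markers summed to 40.8 to 1503 CPM in tumours and 7946 to 32257 CPM in glands, with 12 of 13 called lower in tumours. Luminal epithelial markers summed to 2109 to 4661 CPM in tumours and 491 to 832 CPM in glands, with 10 of 12 called higher, and every library held both epithelial and fat markers. In bulk tissue, fewer cells of a type and less RNA per cell cannot be told apart.

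Klf5 rose in tumours. It stood at 68.3, 48.3, 21.9, 67.2, 42.4 and 26.0 CPM in tumours 1 to 6, against 5.22, 4.18, 6.07 and 25.6 CPM in glands 1 to 4. All tumours but 1 were above every gland, and tumour 3 lay between gland 4 and the other glands. Klf5 averaged 45.7 ± 19.7 CPM in tumours (SD, n = 6) and 10.3 ± 10.2 CPM in glands (SD, n = 4). The log2 fold change was 2.16 ± 0.59 (SE; edgeR adjusted p = 0.0341). Gland 4, the older gland with muscle RNA, was far above glands 1 to 3, which averaged 5.16 ± 0.945 CPM, and without it the log2 fold change was 3.07 (edgeR adjusted p = 0.00413). The call was lost when gland 1, 2 or 3 or tumour 2 or 4 was left out, with adjusted p up to 0.102, and at 1.57 without glands 2 and 3 (edgeR adjusted p = 0.235).

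Relative to the epithelial markers of the same libraries, Klf5 differed by less than the spread between libraries. Its log2 level relative to the mean log2 level of the 12 luminal markers was -2.03 ± 0.88 in tumours (SD, n = 6) and -2.15 ± 1.198 in glands (SD, n = 4). That is a difference of 0.12, where the markers alone differed by 2.33 and Klf5 alone by 2.45. Here and below, such relative values are differences of mean log2 CPM, which are not the edgeR log2 fold changes. Glands 1 to 4 stood at -3.06, -3.00, -2.04 and -0.49, so the gland mean leans on gland 4. With the median of the markers in place of their mean, the difference was -0.22. Per 100 reads of Cdh1, the epithelial cadherin, there were 70.7, 17.6, 14.2, 35.5, 24.1 and 12.4 Klf5 reads in tumours 1 to 6 and 14.8, 13.7, 19.7 and 76.0 in glands 1 to 4. These groups overlapped: no tumour lay above all glands, and the highest values were those of gland 4 and tumour 1. These relative values are descriptions with no test, and the part of epithelial content in the Klf5 difference was not tested.

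Klf4, the squamous and barrier factor, was not called. It stood at 47.8, 18.8, 2.79, 21.7, 37.2 and 60.3 CPM in tumours 1 to 6, against 53.2, 35.7, 45.6 and 33.1 CPM in glands 1 to 4. Its mean was 31.4 ± 21.0 CPM in tumours (SD, n = 6) and 41.9 ± 9.24 CPM in glands (SD, n = 4), with a log2 fold change of -0.42 ± 0.59 (SE; edgeR adjusted p = 0.64). Tumour 3 was the lowest and tumour 6 the highest of all libraries, and the SD of log2 CPM was 1.59 in tumours and 0.32 in glands, where the median gene had 0.81 and 0.59. Tumours 1 and 6, which held the salivary transcripts, were the highest tumours. Without them the Klf4 log2 fold change was -1.06 (edgeR adjusted p = 0.238). Relative to the luminal markers, Klf4 stood at -2.94 ± 1.76 in tumours and 0.27 ± 0.42 in glands on the log2 scale (SD, n = 6 and 4), a difference of -3.21. The markers alone differed by 2.33 and Klf4 alone by -0.88. The part of cells outside the epithelium in the Klf4 levels was not tested.

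The balance of Klf5 and Klf4 reads within libraries differed between most tumours and the glands. There were 1.43, 2.57, 7.84, 3.10, 1.14 and 0.431 Klf5 reads per Klf4 read in tumours 1 to 6, against 0.0982, 0.117, 0.133 and 0.772 in glands 1 to 4. All tumours but 1 held more Klf5 than Klf4 reads, while tumour 6 and all glands held fewer. Such a ratio does not depend on the scaling between libraries, but it is not per transcript length. There were 2.32 to 387 Klf5 reads per Klf15 read in tumours and 0.074 to 0.778 in glands, and 1.22 to 20.2 Klf5 reads per Klf2 read in tumours and 0.0498 to 1.17 in glands. Neither of these ratios overlapped between the groups, though Klf5 to Klf2 nearly met, at 1.22 in tumour 6 and 1.17 in gland 4. Klf15 and Klf2 were by themselves lower in all tumours than in all glands, and Klf5 was higher in all tumours but 1. The separation of these ratios therefore largely follows from those levels and is no further evidence.

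**Figure D2:**
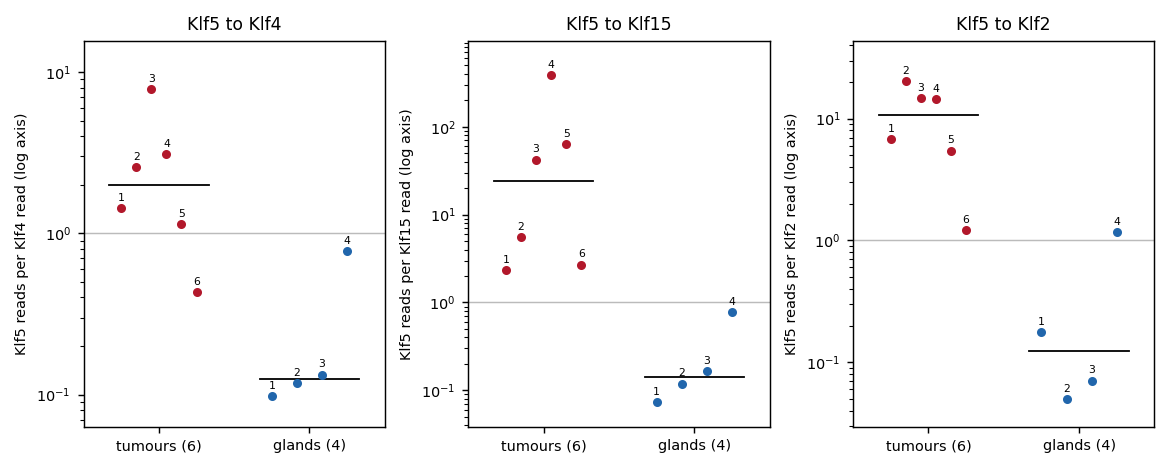
Klf5 reads per read of Klf4, Klf15 and Klf2 within each library, on log axes, with 1 numbered point per library, tumours left of glands, a line at the group median and a grey line at 1. All 6 tumours lie above all 4 glands for Klf15 and Klf2, whose own levels did not overlap between the groups either. For Klf4, 5 of 6 tumours do, and tumour 6 stands at 0.431.

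Among genes acting on the Klf5 protein, Fbxw7 itself did not pass the test. It stood at 33.3, 47.3, 15.1, 27.8, 28.6 and 33.1 CPM in tumours 1 to 6, against 14.3, 17.8, 18.4 and 83.6 CPM in glands 1 to 4, and its log2 fold change of -0.12 ± 0.51 (SE; edgeR adjusted p = 0.888) became 0.80 without gland 4. Reads outside the excised part would still be counted, so this level checks neither the genotype nor the labels. Wwp1, a HECT ubiquitin ligase that also targets Klf5, fell to 42.4 ± 16.2 CPM in tumours (SD, n = 6), against 121.5 ± 84.9 CPM in glands (SD, n = 4). Its log2 fold change was -1.52 ± 0.43 (SE; edgeR adjusted p = 0.0387), and gland 4 was again highest at 246.7 CPM, with -0.98 and an adjusted p of 0.0949 without it. The Wwp1 call held in only 4 of the 10 fits that each left out a library. Smurf2, another ligase of Klf5, had a log2 fold change of -0.02 ± 0.25 (SE; edgeR adjusted p = 0.966). Wwp1 was the only one of the 6 listed ligases and deubiquitinases to be called.

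Genes described as Klf5 targets included 4 called higher and 1 called lower of 10, with a median log2 fold change of 1.67 against 0.17 over all genes. For this and every other list, the shares to set beside the edgeR counts are those of all tested genes. These were 6.89% called higher and 8.19% called lower, and 4.58% called in either direction without glands 2 and 3. Fgfbp1, a carrier protein that releases fibroblast growth factors, rose by 7.57 ± 1.07 on the log2 scale (SE; edgeR adjusted p = 0.00374), with 44.8 ± 55.2 CPM in tumours and 0.243 ± 0.194 CPM in glands (SD, n = 6 and 4). Ccnd1, the G1 cyclin D1, rose by 3.65 ± 0.57 (SE; edgeR adjusted p = 0.00457), and Cdh1 rose by 2.49 ± 0.32 (SE; edgeR adjusted p = 0.00255). Cdh1 is also 1 of the 12 luminal markers. Dusp1, a phosphatase of MAP kinases, fell by 1.57 ± 0.48 (SE; edgeR adjusted p = 0.0478), and that call held in only 1 of the 10 fits that each left out a library. Of the described Klf4 squamous targets, 6 of 11 were tested and Sprr1a, a precursor of the cornified envelope, was the only one called, higher by 4.70 ± 1.27 (SE; edgeR adjusted p = 0.032). The Sprr1a call held in 6 of the 10 fits that each left out a library. Squamous markers as a whole had 3 of 9 called higher and summed to 15.1 to 336 CPM in tumours and 5.21 to 20.5 CPM in glands. Without glands 2 and 3 the counts were 3 Klf5 targets and 0 Klf4 targets by edgeR (1 at an unadjusted p under 0.05).

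Klf2, the factor of quiescent endothelium and resting T cells, fell in tumours. It stood at 10.01, 2.39, 1.48, 4.61, 7.78 and 21.4 CPM in tumours 1 to 6, against 29.5, 84.0, 85.9 and 21.8 CPM in glands 1 to 4. The groups did not overlap, but tumour 6 and gland 4 nearly met. The mean was 7.94 ± 7.33 CPM in tumours (SD, n = 6) and 55.3 ± 34.4 CPM in glands (SD, n = 4). The log2 fold change was -2.80 ± 0.70 (SE; edgeR adjusted p = 0.0246). The highest values were those of glands 2 and 3, which also carried the lymphocyte markers: summed B cell markers were 397 and 427 CPM there, 4.56 to 149 CPM in tumours, and 12.7 and 2.29 CPM in glands 1 and 4. Without glands 2 and 3 the log2 fold change was -1.71 (edgeR adjusted p = 0.261), and the call was also lost without gland 2, gland 3 or tumour 4, with adjusted p up to 0.0668, and with age as a covariate (edgeR adjusted p = 0.0663).

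Vascular markers gave a mixed picture beside Klf2. Endothelial markers summed to 47.2 to 467 CPM in tumours, with the highest in tumour 1, and to 211 to 273 CPM in glands, and 4 of 10 were called lower. On the log2 scale Klf2 stood at 0.09 ± 0.39 relative to the mean of those markers in tumours and at 1.30 ± 1.11 in glands (SD, n = 6 and 4), a difference of -1.21, with the markers themselves at -1.85. Per 100 reads of Pecam1, an endothelial adhesion molecule, there were 2.45, 4.50, 4.98, 15.9, 18.0 and 32.6 Klf2 reads in tumours 1 to 6 and 73.7, 81.9, 113 and 21.7 in glands 1 to 4, so that 5 tumours lay below all glands. Per 100 reads of Cdh5, the endothelial cadherin, there were 166, 137, 56.6, 59.2, 69.8 and 118 in tumours and 112, 285, 330 and 71.5 in glands, and those groups overlapped. Tumour 1 was thus the lowest of all libraries by Pecam1 and the highest tumour by Cdh5. Its Pecam1 was high relative to its Cdh5, and to a lesser degree this held for tumours 2 and 3 as well. The marker sums of tumours 1, 2 and 3 are therefore no measure of endothelium as a whole, and their low Klf2 per Pecam1 read depends on that marker. By Cdh5, tumours 1 and 2 lay within the range of the glands, while tumour 3 stayed below all glands. The parts of endothelial and lymphocyte content in the Klf2 difference were not tested.

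**Figure D3:**
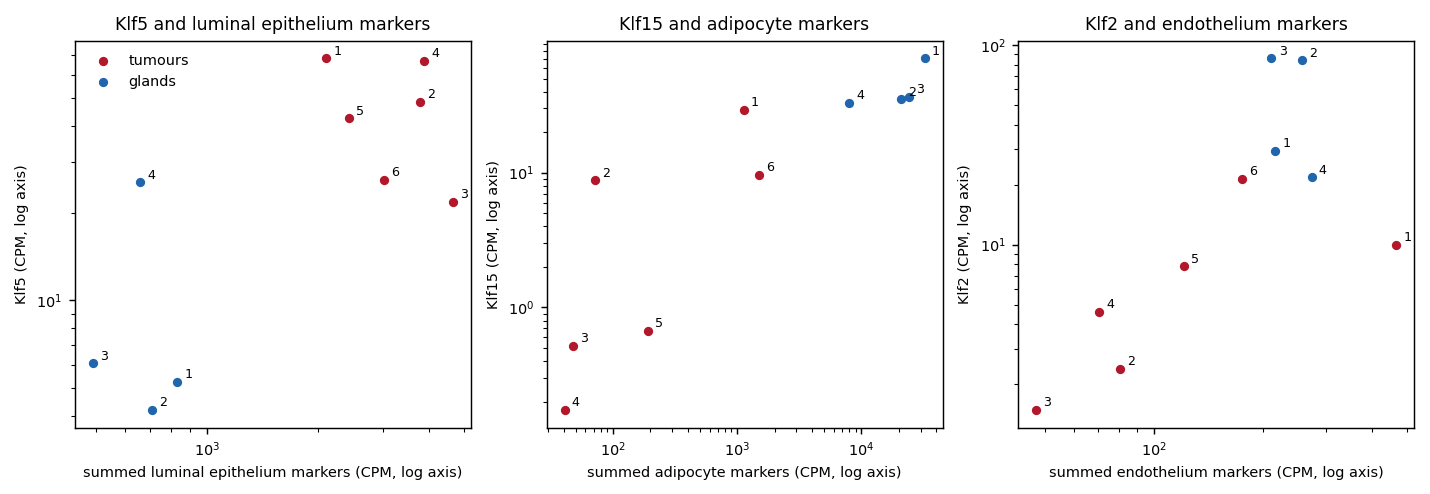
Level of Klf5, Klf15 and Klf2 against the summed level of luminal epithelial, adipocyte and endothelial markers in the same library (CPM, log axes), with 1 numbered point per library, red for tumours and blue for glands. Tumours lie at higher luminal and lower adipocyte sums than all glands. Tumour 1 has the highest endothelial sum, 467 CPM. In tumours 1, 2 and 3 Pecam1 is high relative to Cdh5.

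Klf2 transcription is known to depend on the MEF2 factors downstream of the kinase Mapk7 (ERK5), and its promoter is shown because it holds a match to the MEF2 consensus. The window is chr8:72318812-72319111 on the plus strand of GRCm38.p6 (RefSeq), from 250 bases before to 50 bases after the gene's start, and the capitals mark the match, which begins 118 bases before the start.
Klf2 promoter: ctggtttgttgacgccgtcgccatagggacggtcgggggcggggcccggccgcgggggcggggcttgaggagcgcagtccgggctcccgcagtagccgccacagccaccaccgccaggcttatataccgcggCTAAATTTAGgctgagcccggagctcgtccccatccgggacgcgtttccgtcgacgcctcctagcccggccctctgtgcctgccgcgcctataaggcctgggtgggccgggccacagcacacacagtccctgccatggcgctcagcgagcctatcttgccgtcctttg
Both strands were searched. Klf2 was the only one of the 8 members with a promoter in the table to hold this consensus, which 3.19% of all 32851 promoters hold. A match is a description of the letters and not of binding. Of 11 genes of the upstream kinase, Mef2 and CCM groups, 3 were called lower and none higher (median log2 fold change -0.32). Mef2d had a log2 fold change of -1.85 ± 0.40 (SE; edgeR adjusted p = 0.0143), and Mef2c had -3.45 ± 0.78 (SE; edgeR adjusted p = 0.0174). Mef2c is abundant in muscle and stood at 736 CPM in gland 4, and without that gland its log2 fold change was -1.72. Ccm2, a scaffold that restrains the kinase upstream of Klf2 in endothelium, had -1.11 ± 0.30 (SE; edgeR adjusted p = 0.0318), and was called in 5 of the 10 fits that each left out a library.

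Of 10 genes described as endothelial targets of Klf2 and Klf4, 3 were called lower and none higher, while the median log2 fold change was 0.41. DESeq2 called 3 lower and 2 higher (26.8% of all genes called), and the median was -0.11 by limma-voom. Nos3, the endothelial nitric oxide synthase, averaged 1.42 ± 1.28 CPM in tumours and 29.2 ± 19.9 CPM in glands (SD, n = 6 and 4), and its log2 fold change was -4.36 ± 0.81 (SE; edgeR adjusted p = 0.00877). Thbd, the anticoagulant receptor thrombomodulin, had -3.93 ± 0.76 (SE; edgeR adjusted p = 0.0101), and Cav1, the main protein of caveolae, had -3.73 ± 0.56 (SE; edgeR adjusted p = 0.00422). Cav1 is also abundant in fat. These calls held in each of the 20 alternative fits.

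Klf15, the fat and muscle factor, was lower in every tumour than in every gland without passing the adjusted test. It stood at 29.4, 8.76, 0.519, 0.173, 0.670 and 9.62 CPM in tumours 1 to 6, against 70.6, 35.0, 36.4 and 32.9 CPM in glands 1 to 4. Tumours 3, 4 and 5 were close to empty, with 21, 10 and 36 Klf15 reads, whereas tumour 1 nearly reached the glands. The mean was 8.19 ± 11.2 CPM in tumours (SD, n = 6) and 43.7 ± 18.0 CPM in glands (SD, n = 4). The log2 fold change was -2.43 ± 1.10 (SE; edgeR adjusted p = 0.147). Its SD of log2 CPM among tumours, 2.82, was the widest of the 10 members. Tumours 1 and 6, the salivary ones, also had the highest adipocyte sums of the tumours, 1125 and 1503 CPM, and without them the log2 fold change was -4.12 and the call was made (edgeR adjusted p = 0.0324). It was also made without tumour 1 (-3.48, edgeR adjusted p = 0.0483) and by limma-voom (-4.39, adjusted p = 0.0159).

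Fat markers differed more between the groups than Klf15 did. The 13 adipocyte markers differed by -7.06 in mean log2 level between tumours and glands, and Klf15 differed by -4.07. That measure gives more weight to the nearly empty tumours than the edgeR log2 fold change of -2.43. Relative to those markers Klf15 was thus higher in tumours, at -0.76 ± 1.97, than in glands, at -3.75 ± 1.01 (log2 scale, SD, n = 6 and 4), a difference of 2.99. Per 100 reads of Plin1, the coat protein of fat droplets, there were 167, 643, 58.3, 13.7, 57.1 and 29.6 Klf15 reads in tumours 1 to 6 and 5.94, 4.99, 5.84 and 45.8 in glands 1 to 4, with gland 4 inside the tumour range. The part of fat content in the Klf15 difference was not tested.

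The Klf15 promoter is shown because it holds 3 copies of CACGTG, the E-box bound by Myc, Max and the clock factors. The window is chr6:90462326-90462625 on the plus strand of GRCm38.p6 (RefSeq), and the capitals mark the copies, which begin 228, 172 and 3 bases before the start.
Klf15 promoter: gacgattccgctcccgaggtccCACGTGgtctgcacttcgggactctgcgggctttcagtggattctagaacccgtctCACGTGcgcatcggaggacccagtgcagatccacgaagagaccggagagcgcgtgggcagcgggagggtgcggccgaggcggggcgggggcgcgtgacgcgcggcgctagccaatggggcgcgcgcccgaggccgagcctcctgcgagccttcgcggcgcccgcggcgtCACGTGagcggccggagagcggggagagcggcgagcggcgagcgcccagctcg
CACGTG reads the same on both strands. It stood in 7.15% of all promoters, and 3 or more copies stood in 29 of them (0.088%). Klf4, Klf6 and Klf11 held 1 copy each. The palindromic glucocorticoid response element, AGAACA and TGTTCT set 3 bases apart, was found in none of the 8 member windows and in 3 of all promoters (0.00913%). GGGCGG, a GC box that Sp and Klf proteins can bind, was found in 7 of the 8 windows, all but that of Klf9, and in 35.7% of all promoters.

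Klf9, a glucocorticoid- and hormone-induced repressor, was not called. It stood at 213.9, 109.6, 35.2, 70.3, 69.1 and 95.2 CPM in tumours 1 to 6, against 158.2, 112.5, 125.9 and 406 CPM in glands 1 to 4. All tumours but 1 were below every gland, and tumour 1 was above glands 1 to 3. The mean was 98.9 ± 61.8 CPM in tumours (SD, n = 6) and 200.7 ± 138 CPM in glands (SD, n = 4), with a log2 fold change of -1.02 ± 0.51 (SE; edgeR adjusted p = 0.182). Tumour 1 was the highest tumour and gland 4 the highest gland. Relative to the adipocyte markers Klf9 was 6.03 higher in tumours on the log2 scale, the largest gap of the 5 gene and marker pairs compared. It stood at 4.34 ± 2.15 in tumours and -1.69 ± 2.05 in glands (SD, n = 6 and 4). The markers alone differed by -7.06 and Klf9 alone by -1.03, so that gap was mainly that of the markers. The part of fat content in the Klf9 difference was not tested. There were 13.7, 7.99, 1.48, 0.247, 0.969 and 10.1 Klf15 reads per 100 Klf9 reads in tumours, against 44.6, 31.1, 28.9 and 8.09 in glands. On that ratio 4 of the tumours lay below all glands, and tumours 1 and 6 lay above gland 4.

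Of 11 glucocorticoid-responsive genes, 1 was called higher and 4 lower (median log2 fold change -1.03). Nr3c1, the glucocorticoid receptor, fell to 76.8 ± 18.3 CPM in tumours, against 206 ± 14.6 CPM in glands (SD, n = 6 and 4). Its log2 fold change was -1.43 ± 0.25 (SE; edgeR adjusted p = 0.0074), and it was called in each of the 20 alternative fits. Tsc22d3 (GILZ), a mediator of glucocorticoid action, had -1.82 ± 0.45 (SE; edgeR adjusted p = 0.0241), and Zbtb16, a zinc finger repressor, had -3.18 ± 0.94 (SE; edgeR adjusted p = 0.0429), called in 3 of the 10 fits that each left out a library. Mt2, a metallothionein also induced by metals, went the other way, at 3.30 ± 0.55 (SE; edgeR adjusted p = 0.00572). Fkbp5, a chaperone partner of the receptor, had 0.16 ± 0.46 (SE; edgeR adjusted p = 0.821). Without glands 2 and 3 only 1 of the 11 was called, Nr3c1.

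Of 13 adipogenic factors 4 were called lower and none higher (median log2 fold change -0.91), and of 7 tested genes described as Klf15 targets 5 were called lower and none higher (median -2.60). Pparg, the master regulator of fat cells and 1 of the 13 adipocyte markers, had a log2 fold change of -5.19 ± 1.04 (SE; edgeR adjusted p = 0.0112). Its partners Cebpa and Rxra had -3.08 ± 0.69 (SE; edgeR adjusted p = 0.017) and -1.47 ± 0.35 (SE; edgeR adjusted p = 0.0219), while Cebpb, which acts earlier in fat cell formation, had 0.18 ± 0.57 (SE; edgeR adjusted p = 0.845). Gpt, the alanine aminotransferase that feeds amino carbon into glucose synthesis, averaged 5.60 ± 4.95 CPM in tumours and 99.5 ± 48.3 CPM in glands (SD, n = 6 and 4), and its log2 fold change was -4.16 ± 0.66 (SE; edgeR adjusted p = 0.00467). Acss2, an acetyl-CoA synthetase, had -2.22 ± 0.36 (SE; edgeR adjusted p = 0.00552). Trim63, a muscle ubiquitin ligase, had -7.15 ± 1.80 (SE; edgeR adjusted p = 0.0252), but stood at 251 CPM in the muscle-rich gland 4 and at 0 in gland 3, and had -4.02 with an adjusted p of 0.101 without gland 4. Without glands 2 and 3, 1 of 13 adipogenic factors and 3 Klf15 targets were called.

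Neither TGF-beta-inducible factor was called. Klf10 stood at 27.9, 30.9, 24.9, 23.2, 20.3 and 38.1 CPM in tumours 1 to 6, against 40.7, 29.4, 26.3 and 57.0 CPM in glands 1 to 4. Its log2 fold change was -0.48 ± 0.29 (SE; edgeR adjusted p = 0.257). Klf11 stood at 7.61, 10.9, 10.7, 8.60, 8.17 and 9.23 CPM in tumours, against 16.5, 12.7, 9.86 and 15.0 CPM in glands, and 4 of the 6 tumours were below every gland. Its log2 fold change was -0.55 ± 0.26 (SE; edgeR adjusted p = 0.161). Klf11 varied least among tumours of the 10 members, with an SD of log2 CPM of 0.21, where the median gene had 0.81. The interval of 2 SE either side ran from -1.05 to 0.09 for Klf10 and from -1.08 to -0.03 for Klf11.

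Of 15 genes of TGF-beta signalling, 2 were called higher and none lower, where edgeR called 15.1% of all tested genes. DESeq2 called 6 higher and 1 lower, where it called 26.8% of all genes. Ccn2, a matricellular target of TGF-beta and of YAP, rose by 3.71 ± 0.65 on the log2 scale (SE; edgeR adjusted p = 0.00717), and Tgif1, a homeodomain repressor of Smad transcription, rose by 1.68 ± 0.45 (SE; edgeR adjusted p = 0.0311) and was called in 4 of the 10 fits that each left out a library. The ligand Tgfb1 had -1.33 ± 0.71 (SE; edgeR adjusted p = 0.206). The receptor Tgfbr2 had -1.32 ± 0.41 (SE; edgeR adjusted p = 0.0517). Without glands 2 and 3, edgeR called 0 genes of this list, with 4 at an unadjusted p under 0.05.

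The broadly expressed members did not separate the groups. Klf6, a factor induced by tissue injury, stood at 72.3, 96.0, 54.6, 200.7, 160.8 and 110.8 CPM in tumours 1 to 6, against 84.8, 101.8, 128.6 and 69.1 CPM in glands 1 to 4 (log2 fold change 0.27 ± 0.38, SE; edgeR adjusted p = 0.635). Klf13, a repressor that binds Sin3a, stood at 53.3, 107, 52.9, 73.8, 25.7 and 66.7 CPM in tumours, against 57.7, 95.6, 88.4 and 42.1 CPM in glands (log2 fold change -0.17 ± 0.38, SE; edgeR adjusted p = 0.779). Klf3, which represses through the CtBP proteins and restrains fat cell formation, stood at 43.2, 50.6, 51.5, 71.8, 62.3 and 70.1 CPM in tumours, against 71.0, 71.5, 65.7 and 29.3 CPM in glands (log2 fold change -0.03 ± 0.30, SE; edgeR adjusted p = 0.956). In each of the 3 the tumours and glands overlapped, and the intervals of 2 SE either side ran from -0.62 to 0.56 for Klf3, from -0.93 to 0.60 for Klf13 and from -0.49 to 1.03 for Klf6. Upper-quartile scaling shifted the median of all genes by 0.16, and under it the log2 fold changes of Klf3 and Klf13 were 0.15 and 0.00.

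**Figure D4:**
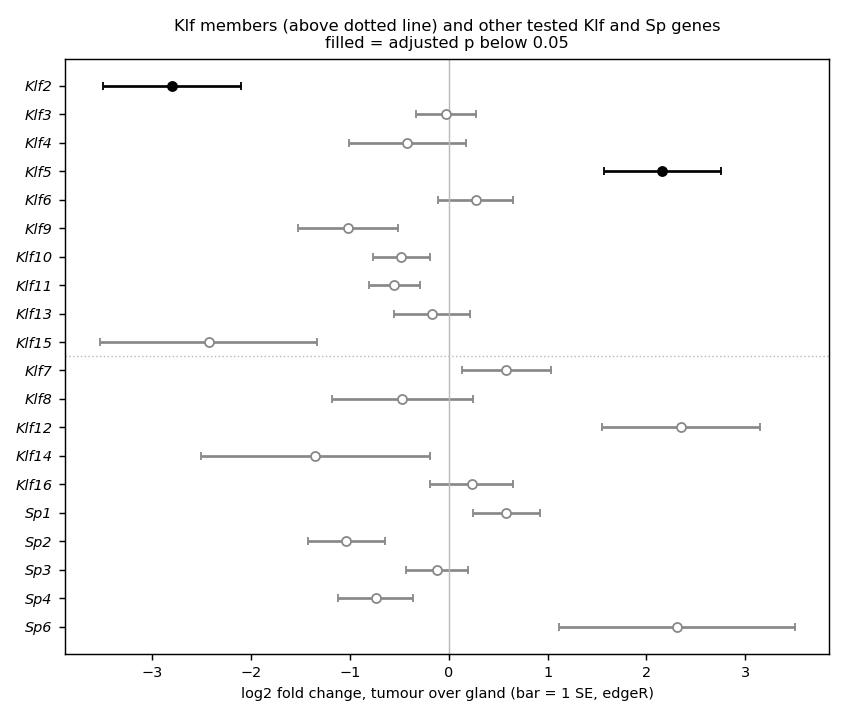
Log2 fold change of tumours over glands for the 10 Klf members (above the dotted line) and the other tested Klf and Sp genes (below it), with bars of 1 SE from edgeR, and filled points for an adjusted p below 0.05. Klf5 at 2.16 and Klf2 at -2.80 are the filled points.

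Corepressors used by these factors had 2 of 11 called higher and none lower, where 15.1% of all tested genes were called. Ctbp2, a corepressor of Klf3, rose by 1.73 ± 0.37 on the log2 scale (SE; edgeR adjusted p = 0.0139), while Ctbp1, its close relative, had -0.14 ± 0.29 (SE; edgeR adjusted p = 0.764). Sap30, a subunit of the Sin3 complex, rose by 2.20 ± 0.37 (SE; edgeR adjusted p = 0.00589), and Sin3a had 0.14 ± 0.31 (SE; edgeR adjusted p = 0.774). Several Klf genes are themselves immediate early genes, and of 11 others Ier3, a stress-induced survival factor, was the only one called, higher by 3.55 ± 1.03 (SE; edgeR adjusted p = 0.0408). The Ier3 call held in 4 of the 10 fits that each left out a library. Fos had 1.94 ± 0.77 (SE; edgeR adjusted p = 0.106) and Egr1 had 0.63 ± 0.63 (SE; edgeR adjusted p = 0.491). Without glands 2 and 3, edgeR called 0 genes of either list, with 2 corepressors and 1 immediate early gene at an unadjusted p under 0.05.

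Of 7 other Klf genes 5 were tested, and of 9 Sp genes 5 were tested, and edgeR called 0 of them. At an unadjusted p under 0.05 there were 1 Klf and 1 Sp gene, and DESeq2 called 1 of each. Klf12, a repressor that like Klf3 binds CtBP, stood at 4.32, 6.29, 51.9, 10.9, 6.49 and 4.10 CPM in tumours 1 to 6, against 2.63, 2.73, 1.61 and 4.01 CPM in glands 1 to 4. All tumours were above all glands, with tumour 3 far above the rest, and its log2 fold change was 2.35 ± 0.80 (SE; edgeR adjusted p = 0.0688, and 0.0109 by DESeq2). Sp2 had -1.04 ± 0.39 (SE; edgeR adjusted p = 0.0889), and the remaining tested relatives had adjusted p above that of Sp2.

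**Figure D5:**
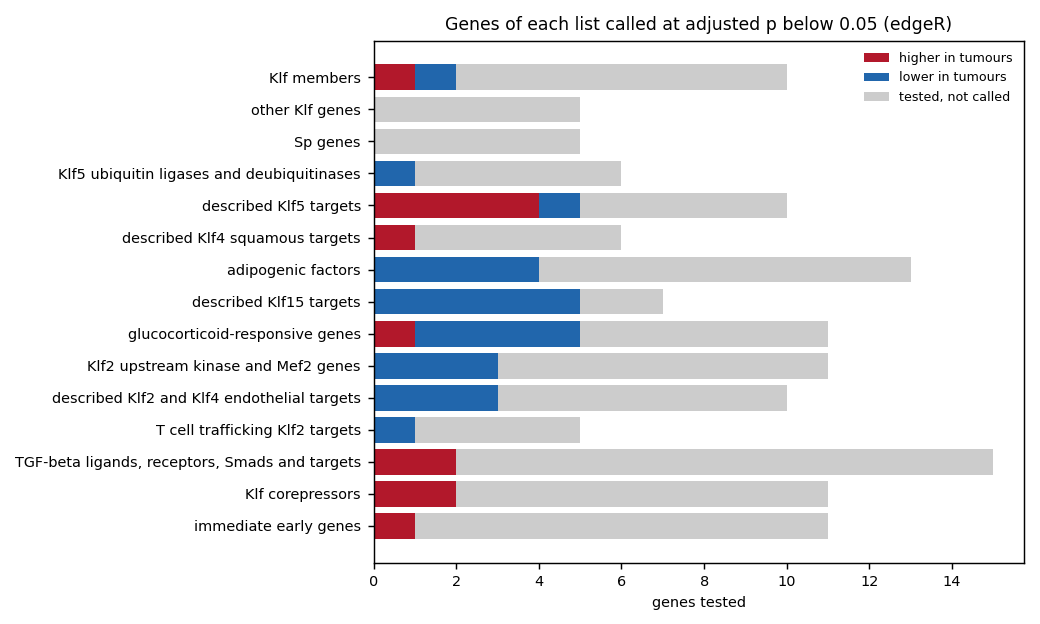
Number of tested genes in each list that edgeR called higher in tumours (red), called lower (blue) or did not call (grey) at an adjusted p below 0.05. The described Klf15 targets have 5 of 7 called lower, the described Klf5 targets 4 of 10 called higher, and the other Klf and Sp genes none. Of all tested genes, 6.89% were called higher and 8.19% lower.

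Over the 14 lists around the members, 33 of 126 tested genes were called, where 15.1% of all tested genes were called. Without glands 2 and 3, 14 were called, where the share of all genes was 4.58%. The luminal, adipocyte and endothelial marker sums given above differed between the same libraries, and their part in these counts was not tested.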

How the data were processed

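PolyA RNA of whole tissue was sequenced from 6 tumours and 4 glands, grouped by the labelled tissue type, and the 3 purified epithelium samples of the 13 in the series were not analysed here. The authors deposited whole-number read counts per gene symbol. Salmon 1.2.0, DESeq and the mm9 build are listed in the submitters' processing notes without their roles, and the summing of transcripts to genes is not described in them. Separate animals are not stated for the libraries, so p-values reflect spread between libraries, which may be technical. None of the 45 pairs of libraries were copies, with a chi-square of at least 27.8 per degree of freedom (genes with a summed count of 20 or more).

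Counts were filtered (filterByExpr), scaled (TMM; factors 0.422 in tumour 1, 0.58 in gland 4, 0.889 to 1.41 elsewhere) and tested in edgeR 4.0.16 (R 4.3.3), two-sided, with Benjamini-Hochberg adjustment over 20101 genes. An SE is the size of the log2 fold change over the root of its F statistic. Log2 CPM used a prior count of 2. The biological coefficient of variation was 0.707. Data were simulated with that same coefficient of variation for every gene, and with few of the 19653 genes set to differ. On these simulated data, edgeR detected 0 of the 66 genes set to differ by 2-fold, 4 of 61 at 4-fold and 23 of 58 at 8-fold. It called 0 genes wrongly. DESeq2 detected 2, 18 and 41 of the same genes, but 24 genes were called by it in error. In the real data 15.1% of genes were called and the spread differed between genes, so these rates do not measure the power of the tests above. A gene that edgeR did not call may still differ between the groups. Alternatives were DESeq2 1.42.0, limma-voom 3.58.1, other scaling and filters, age as a covariate, and libraries left out. The members and lists were chosen with earlier results of these data known. Named genes are the members, up to 3 called genes per list and direction by smallest adjusted p, and those a rule named whatever their test. Single genes of the T cell trafficking list are not reported here. Members' promoters came from RefSeq (GRCm38.p6) and transcripts from GENCODE vM21.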

Additional observations from a re-analysis of the deposited data

Results flagged for a closer look

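Of 44 groups of libraries checked among the Klf and Sp genes, Fbxw7 and Wwp1, 9 held a highest or lowest library far from the others by Dixon's criterion at 95%. For normally distributed values chance flags about 1 in 20. The criterion was applied to CPM without a log, and the groups share the same 10 libraries, so that rate is only a rough guide here. Gland 4 was apart in 4 of them: it was lowest of the glands for Klf3 (29.3 CPM), and highest for Klf5 (25.6 CPM), Klf9 (406 CPM) and Fbxw7 (83.6 CPM). Gland 4 is also the 40-week gland with 7.52% of its counts in muscle marker genes, and the part of either in these values was not tested. Klf15 was highest in tumour 1 among tumours (29.4 CPM) and in gland 1 among glands (70.6 CPM). Among relatives, Klf12 was highest in tumour 3 (51.9 CPM), Sp6 in tumour 5 (18.3 CPM) and Klf14 in tumour 1 (0.891 CPM).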

How the results depend on the processing

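No paired analysis was possible because the labels give the tumours and glands no shared replicate numbers. The number of members called was 2, and became 1 with age as a covariate, 0 without glands 2 and 3 (chosen after seeing the data) and 0 to 3 when 1 library was left out, the highest without tumour 1. The number of listed genes called was 33 (15.1% of all tested genes), and became 14 without glands 2 and 3 (4.58%) and 17 to 34 when 1 library was left out. Over 1153 values of single genes under the alternatives, 976 kept direction and side of the threshold, 111 lost the call, 20 gained it and 46 changed sign, all of these among genes not called. For Klf3 the log2 fold change was 0.14 with age, 0.02 with a filter of 1 CPM in 4 libraries, 0.02 by limma-voom, 0.15 with upper-quartile scaling and 0.20 without glands 2 and 3, and it ran from -0.31 to 0.06 with 1 library left out. For Klf13 it was 0.14, 0.00 and 0.33 with age, upper-quartile scaling and without glands 2 and 3 (-0.42 to 0.00 with 1 library left out). For Smurf2 it was 0.01 with age, 0.02 with the 1 CPM filter, 0.13 with upper-quartile scaling, 0.04 without glands 2 and 3 and 0.08 without tumours 1 and 6 (-0.17 to 0.07 with 1 left out). For Fbxw7 it was 0.33 by limma-voom, 0.01 with upper-quartile scaling and 0.72 without tumours 1 and 6 and gland 4 (-0.37 to 0.80 with 1 left out). For Sp3 it was 0.00 with upper-quartile scaling, 0.07 without glands 2 and 3 and 0.04 without tumours 1 and 6. For Cebpb it was -0.14 by limma-voom and -0.05 without tumours 1 and 6 and gland 4 (-0.06 to 0.46 with 1 left out). Without tumours 1 and 6 and gland 4 it was -0.33 for Fkbp5 (-0.17 to 0.44 with 1 left out) and -0.07 for Klf16 (-0.11 to 0.39 with 1 left out). For Ctbp1 it was 0.05 with upper-quartile scaling, and for Sin3a it ran from -0.06 to 0.25 with 1 left out. The cause was not tested. The median log2 fold change of all genes was 0.17, against 0.16 more with upper-quartile scaling.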
